A study of Mus musculus with 6 samples.

Results

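A set of 10 genes of the smooth muscle contractile apparatus was examined in BMMSCs, the adherent cells grown from mouse bone marrow. They are Acta2, Actg2, Tagln, Cnn1, Myl9, Tpm1, Tpm2, Cald1, Myh11 and Des, taken by symbol from the deposited expression table, so 10 of its 36870 symbols. All 10 genes reached a mean of 0.1 RPKM over the 6 libraries and were tested. Myh11 did so only through its control libraries, as its siRNA mean was 0.0977 RPKM. RPKM, the unit of the table, is the read number of a gene corrected for gene length and for library depth. The cells came from C57BL/6 mice and are labelled passage 2, whereas the methods give an earlier passage. Macrophage markers were abundant in every library, with a sum of 9676 to 12710 RPKM in control cells and 18180 to 21250 RPKM in siTet1/Tet2 cells. Most of the difference between these sums was 1 gene, Lyz2, at means of 4439 and 11320 RPKM. The 3 control libraries came from cells given a non-targeting siRNA according to the labels, whereas the RNA-sequencing methods call these cells vehicle-treated, and the 3 siTet1/Tet2 libraries came from cells given siRNAs against Tet1 and Tet2 together. Nothing states whether the 3 libraries of a group are separate cultures or animals, so the p-values measure the spread between these libraries, which may be technical.

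Smooth muscle contracts when myosin pulls on actin filaments. Acta2 and Actg2 encode the actins of these filaments, Tpm1, Tpm2 and Cald1 encode proteins that lie along them, Tagln and Cnn1 encode actin binding proteins, Myl9 and Myh11 encode the regulatory light chain and the heavy chain of smooth muscle myosin, and Des encodes the intermediate filament protein desmin. Many of these genes are also switched on in cultured fibroblasts and stromal cells that form stress fibres, and the transcription factor SRF, bound at CArG boxes, is a known regulator of the set.

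The targeted genes were examined first. Tet2 was at 2.573, 4.081 and 3.706 RPKM in control cells, compared with 0.358, 0.238 and 0.202 RPKM in siTet1/Tet2 cells, and it was lower (log2 fold change -1.80, standard error, SE, 0.13, limma, adjusted p = 2.88e-05). Tet1 was at 0.032, 0.098 and 0.05 RPKM in control cells, compared with 0.001, 0.01 and 0.001 RPKM in siTet1/Tet2 cells, where 0.001 is the lowest value the table lists, and was too low to be tested. The table gives no read totals. The depth estimated from the low values was between 32400000 and 38700000 reads per library.

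All 10 contractile genes were lower in siTet1/Tet2 BMMSCs. Every siRNA library lay below every control library for each of the 10 genes, which was the case for 35.9% of the 13266 genes tested. In limma 10 of the 10 genes were lower at an adjusted p under 0.05, against 29.8% of all genes tested, and 0 were higher, against 14.7% (at an unadjusted p under 0.05, also 10 lower and 0 higher). These counts include Myh11, which was tested only because of its control libraries, so its part in them carries less weight. By the criteria of the study (fold change above 2 and unadjusted p under 0.05), 8 of the 10 genes counted as altered and lower, against 5.63% of all genes tested. The fold here is on the log2(RPKM + 1) scale, on which Myh11 and Des, below 1 RPKM, did not reach 2. With the fold of mean RPKM, a choice made after the values had been seen, 10 of the 10 genes counted, against 11.8% of all genes tested. The median log2 fold change of the 10 genes was -1.71, beside -0.09 over all genes tested. Together the 10 genes summed to between 2084 and 2273 RPKM in control cells, and to between 440.7 and 724.8 RPKM in siTet1/Tet2 cells, which is 0.507% to 0.53% of the summed RPKM of the control libraries and 0.1% to 0.171% of that of the siRNA libraries. In bulk RNA, fewer cells of a type and less RNA per cell cannot be told apart.

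**Figure D1:**
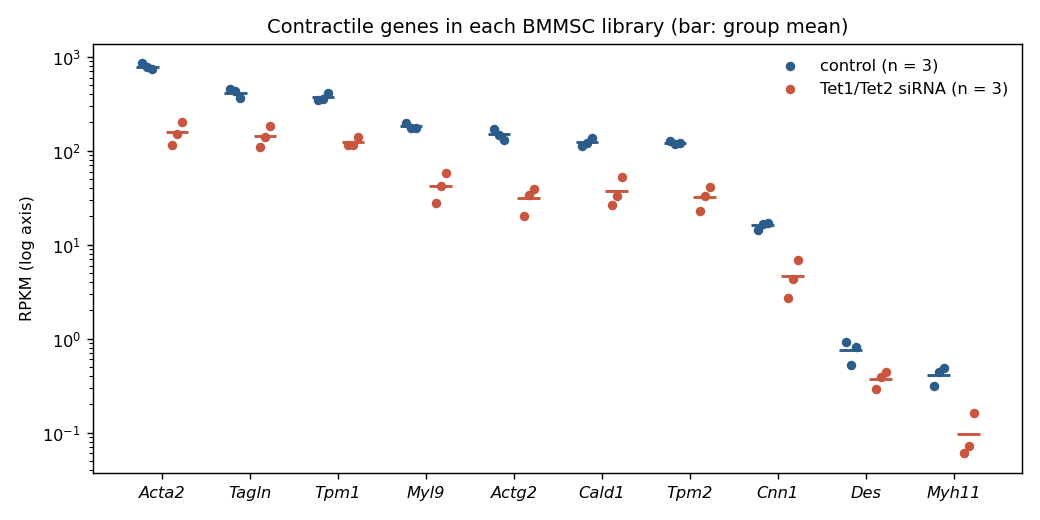
RPKM (log axis) of the 10 contractile genes in each of the 3 control (blue) and 3 siTet1/Tet2 (red) libraries, with a bar at each group mean. The red points lie below the blue points for every gene, and the levels run from Acta2, with a control mean of 787.7 RPKM, to Myh11, with 0.414 RPKM.

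Among the actins, Acta2 (smooth muscle alpha actin, chromosome 19 from 34241090 to 34255590 on GRCm38) was the most abundant of the 10 genes. It was at 849.425, 778.42 and 735.392 RPKM in control cells, compared with 116.176, 152.582 and 200.846 RPKM in siTet1/Tet2 cells. The highest siRNA library thus stood far below the lowest control library. The mean of Acta2 was 787.7 ± 57.6 RPKM in control cells and 156.5 ± 42.5 RPKM in siTet1/Tet2 cells (SD, n = 3 each), a 5.03-fold decrease of the group means (log2 fold change -2.36, SE 0.17, limma, adjusted p = 2.88e-05), the largest of the 10 genes. Actg2 (smooth muscle gamma actin, chromosome 6 from 83512905 to 83536265) was at 169.123, 148.84 and 131.32 RPKM in control cells, compared with 20.434, 33.73 and 39.484 RPKM in siTet1/Tet2 cells. It fell 4.80-fold (log2 fold change -2.27, SE 0.21, limma, adjusted p = 8.55e-05). Within a library Acta2 stayed in a narrow proportion to Actg2, with 5.02, 5.23 and 5.60 RPKM of Acta2 per RPKM of Actg2 in the control libraries and 5.69, 4.52 and 5.09 in the siRNA libraries, so that the groups overlapped.

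The bases shown here are candidate SRF sites of Acta2 and Myl9, the members with the motif in the 250 bases before a RefSeq start. Capitals mark a CArG box, which is CC and GG around A and T bases, or a CArG box with 1 of those bases replaced by C or G. Such a box is its own reverse complement in form, so both strands were read together.
Acta2 first site, chr19:34255438-34255467, minus strand: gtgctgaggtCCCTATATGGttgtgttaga
Acta2 second site, chr19:34255388-34255417, minus strand: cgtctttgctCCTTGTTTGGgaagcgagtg
Myl9, chr2:156775284-156775383, plus strand: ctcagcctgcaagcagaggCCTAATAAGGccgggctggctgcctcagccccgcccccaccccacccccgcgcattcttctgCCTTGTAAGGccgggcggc
Both Acta2 sites begin 84 and 34 bases before the RefSeq start and have 1 replaced base each. In GENCODE M21 they fall inside the first exon of a transcript that begins further upstream. The Myl9 stretch lies in no exon of the gene, and its first site, 161 bases before the start, is a full CArG box, whereas the second, 99 bases before it, has 1 replaced base. RefSeq starts on GRCm38.p6 were matched for 7 of the 10 genes, in 8 windows, and not for Actg2, Tagln and Myh11. A full box was present in 1 of the 8 windows and in 1.47% of 32851 windows of all genes. At least 1 box with up to 1 replaced base was present in 2 of the 8 windows and in 8.59% of all windows, and both of those windows held at least 2, as did 0.67% of all windows. These letters are a description and not evidence of binding, and their absence from the windows of Tpm1, Tpm2, Cald1, Cnn1 and Des concerns these 250 bases only.

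The group means of the actin binding genes differed by a smaller ratio than those of the actins. Tagln (transgelin, or SM22 alpha, chromosome 9 from 45929619 to 45936058) was at 453.557, 429.284 and 360.641 RPKM in control cells, compared with 108.637, 139.247 and 185.535 RPKM in siTet1/Tet2 cells. It fell 2.87-fold (log2 fold change -1.54, SE 0.18, limma, adjusted p = 0.000247). Reads of Tagln could include those of overlapping genes, since 62.4% of its exonic bases lie under an antisense gene, Gm48529, and 5.43% under the opposite-strand gene Pcsk7, and the use of strand is not given in the sources used here. Pcsk7 was at means of 16.26 RPKM in control cells and 11.47 RPKM in siTet1/Tet2 cells. Cnn1 (calponin 1, chromosome 9 from 22099216 to 22109630) was at 14.296, 16.808 and 17.019 RPKM in control cells, compared with 2.689, 4.295 and 6.931 RPKM in siTet1/Tet2 cells. It fell 3.46-fold (log2 fold change -1.66, SE 0.24, limma, adjusted p = 0.000784). Cald1 (caldesmon, which restrains actomyosin, chromosome 6 from 34598500 to 34775473) was at 113.571, 120.66 and 135.927 RPKM in control cells, compared with 26.734, 32.748 and 52.145 RPKM in siTet1/Tet2 cells. It fell 3.32-fold (log2 fold change -1.75, SE 0.21, limma, adjusted p = 0.000273). In each of these genes siRNA replicate 3 was the siRNA library nearest to the control libraries.

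Of the tropomyosins, Tpm1 (chromosome 9 from 67022590 to 67049406) was at 346.809, 355.657 and 407.418 RPKM in control cells, compared with 115.247, 114.114 and 139.462 RPKM in siTet1/Tet2 cells. Its siRNA libraries lay close together, and it had the lowest p of the 10 genes (3.01-fold lower, log2 fold change -1.58, SE 0.10, adjusted p = 1.34e-05 from limma). Tpm2 (chromosome 4 from 43514711 to 43523765) was at 126.15, 117.718 and 122.213 RPKM in control cells, compared with 22.782, 32.761 and 41.341 RPKM in siTet1/Tet2 cells. It fell 3.78-fold (log2 fold change -1.92, SE 0.18, limma, adjusted p = 7.93e-05). The RPKM of Tpm1 per RPKM of Tpm2 was 2.75, 3.02 and 3.33 in the control libraries and 5.06, 3.48 and 3.37 in the siRNA libraries, so that the groups nearly touched (not tested). Tpm1 and Cald1 have 21 and 18 annotated transcripts, from both muscle and non-muscle forms, and the table gives 1 value per gene, so the forms were not separated.

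Of the myosin genes, Myl9 (regulatory light chain, chromosome 2 from 156775420 to 156781658) was at 198.971, 173.269 and 172.589 RPKM in control cells, compared with 27.636, 41.872 and 58.428 RPKM in siTet1/Tet2 cells. It fell 4.26-fold (log2 fold change -2.12, SE 0.22, limma, adjusted p = 0.000154). Myh11 (smooth muscle myosin heavy chain, chromosome 16 from 14194535 to 14291372) was scarce in both groups, at 0.313, 0.442 and 0.487 RPKM in control cells, roughly 77, 96 and 103 reads by the estimated depth, and 0.06, 0.072 and 0.161 RPKM in siTet1/Tet2 cells, roughly 15, 18 and 37 reads. Its group means differed 4.24-fold, close to Myl9. On the log2(RPKM + 1) scale, which compresses genes below 1 RPKM, the log2 fold change was only -0.36 (SE 0.07, adjusted p = 0.00436 from limma), and with a pseudocount of 0.01 it was -2.07 (adjusted p = 0.00618).

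Des (desmin, chromosome 1 from 75360329 to 75368579) was the least certain of the 10 genes. It was at 0.929, 0.519 and 0.823 RPKM in control cells, roughly 106, 52 and 81 reads, and at 0.288, 0.387 and 0.441 RPKM in siTet1/Tet2 cells, roughly 33, 45 and 47 reads. The lowest control library and the highest siRNA library were close. An antisense gene, Gm15179, lies over 5.86% of the exonic bases of Des, so reads of Des could include those of that gene. The group means differed 2.03-fold (log2 fold change -0.35, SE 0.10, limma, adjusted p = 0.0216), and the call was lost without control replicate 1 (adjusted p = 0.0631), siRNA replicate 1 (0.0792) or siRNA replicate 2 (0.0594). Quantile normalization ended the call as well, with an adjusted p of 0.158 and a log2 fold change of -0.17.

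The level of these genes goes partly against the name smooth muscle. Acta2, Tagln and Tpm1 had control means of 787.7, 414.5 and 370.0 RPKM, whereas Myh11, the gene that most defines mature smooth muscle, and Des, the muscle intermediate filament, were below 1 RPKM in every library. Myocd, the smooth muscle cofactor of SRF, was at a control mean of 0.287 RPKM. Of 13 markers of mural cells (pericytes and vascular smooth muscle) 7 were tested, and Kcnj8 and Vtn stood at the lowest listed value in all 6 libraries. In contrast, Actg2 and Cnn1 had control means of 149.8 and 16.04 RPKM. The mural markers Pdgfrb, Angpt1 and Notch3 had control means of 30.18, 3.01 and 1.056 RPKM. By level the set was led by Acta2, Tagln and Tpm1, and the type of cell that carried it was not tested. Acta1, the skeletal muscle actin, was at a mean of 3.49 RPKM in control cells, against 2.20 RPKM in siTet1/Tet2 cells. Of the 25 striated muscle genes listed, 5 reached a mean of 0.1 RPKM, and 1 of these, Acta1, was lower and 0 higher at an adjusted p under 0.05. Lower genes thus made up 20% of those 5, against 29.8% of all genes tested.

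The contractile genes were then set against their non-muscle paralogs in the same library, since such a ratio does not depend on how a library is scaled. It still depends on the mix of cells in a library, since bulk RNA does not separate the cells that carry each gene. A change of ratio within a cell was therefore not tested. The paralogs are the members of each family that are not particular to muscle, and vimentin in the case of desmin. Actb was at a mean of 3340 RPKM in control cells, against 2859 RPKM in siTet1/Tet2 cells (adjusted p = 0.161 from limma), Tagln2 at 326.4 and 299.2 RPKM (adjusted p = 0.282) and Vim at 1778 and 1519 RPKM (adjusted p = 0.0794). Of the 13 non-muscle genes listed, 8 were lower at an adjusted p under 0.05, against 29.8% of all genes tested, and 1 was higher, against 14.7%. The other 4 were not called, and the median log2 fold change of the list was -0.38. The count of lower genes was 11 when libraries were rescaled to the same sum and 12 without control replicate 3. Those with the lowest p were Tpm4, Cnn3 and Cnn2, which fell 2.15-fold, 3.90-fold and 2.73-fold. The gene that was higher was Myl12b, with a log2 fold change of 0.36 (adjusted p = 0.0385 from limma).

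In 8 of the 9 pairs every siRNA library had a lower ratio of member to paralog than every control library. Each member already lay below the control libraries by itself, and the paralogs of these 8 pairs fell less. The count was thus largely set beforehand, and the same count over other genes was not made. With 3 libraries against 3, an exact permutation test cannot give a p under 0.1, and these 8 pairs reached that smallest value (two-sided, 0.113 after Benjamini-Hochberg adjustment over the 9 pairs). For Acta2 over Actb the log2 ratio was -2.05, -2.08 and -2.12 in the control libraries and -4.60, -4.25 and -3.83 in the siRNA libraries, a decrease of 4.41-fold. The ratio of Tagln to Tagln2 went from 0.34 to -1.08 on the log2 scale, so that Tagln exceeded Tagln2 in the control libraries and was exceeded by it in the siRNA libraries. The same turn was found for Tpm1 over Tpm3, from 0.75 to -0.48. By group means, Tpm1 still exceeded Tpm4 in siTet1/Tet2 cells, at 122.9 against 118.6 RPKM. The ratio decreased 3.43-fold for Actg2 over Actg1, 3.30-fold for Myl9 over Myl12a, 3.52-fold for Myh11 over Myh9, 1.80-fold for Tpm2 over Tpm4 and 1.71-fold for Des over Vim. With a pseudocount of 0.1 the log2 difference of Myh11 over Myh9 went from -1.82 to -1.01, and that of Des over Vim from -0.78 to -0.61 with overlapping groups (exact permutation p = 0.2), which leaves 7 pairs apart. The pair that overlapped without a pseudocount was Cnn1 over Cnn3, at -1.78, -1.47 and -1.60 in the control libraries and -1.81, -1.55 and -1.19 in the siRNA libraries (exact permutation p = 0.7). Against the mean of Cnn2 and Cnn3 the log2 ratio of Cnn1 changed by -0.31 (exact permutation p = 0.2). Against such a family mean the change was between -2.10 for Acta2 and -0.88 for Tpm1 in the other pairs so tried. For Myh11 that mean is mostly Myh9, at 233.7 RPKM in control cells against 4.296 RPKM for Myh10. Myh10 itself fell 3.32-fold, and the ratio of Myh11 to Myh10 was not tested. Little sequence is shared within these families. Of the windows of 50 bases in the longest coding transcript, 0.352% for Acta2 and 0.4% for Myh11 occurred in transcripts of other genes, and 0 for the other 8 genes.

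**Figure D2:**
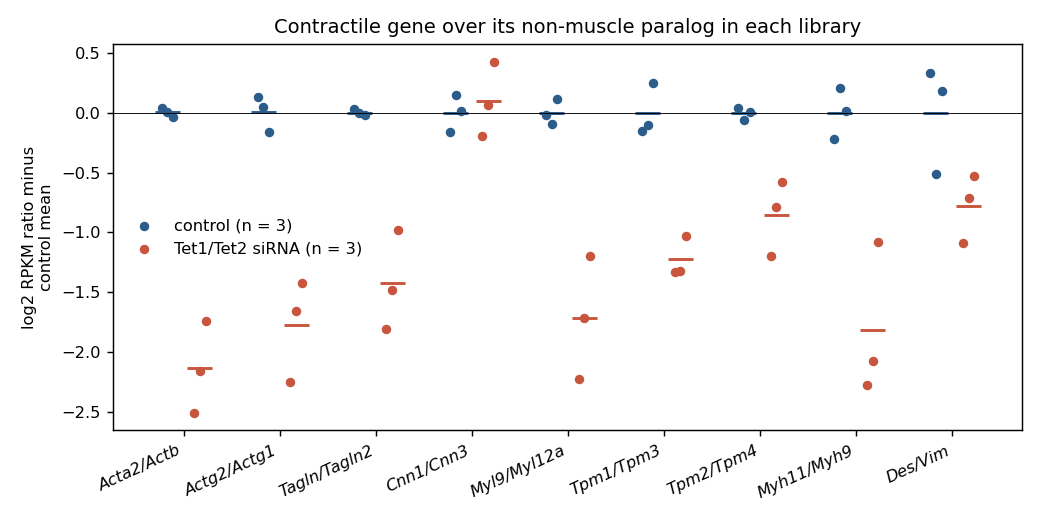
Log2 RPKM ratio of each contractile gene to its non-muscle paralog in each library, as the difference from the control mean of that ratio, with a bar at each group mean (n = 3 per group). The siRNA libraries (red) lie below the control libraries (blue) in 8 of 9 pairs, and overlap them for Cnn1/Cnn3.

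Other genes of the contractile apparatus and of its control mostly fell as well. In a list of 30 such genes, 29 were tested. At an adjusted p under 0.05, 25 were lower, against 29.8% of all genes tested, 1 was higher, against 14.7%, and 3 were not called. The median log2 fold change of the list was -0.76. Synpo2 (synaptopodin 2, an actin bundling protein) and Actn1 (alpha actinin 1, which crosslinks actin) had the lowest p among the lower genes. Synpo2 was at 0.739, 0.875 and 0.954 RPKM in control cells, compared with 0.087, 0.1 and 0.095 RPKM in siTet1/Tet2 cells, and Actn1 fell 1.86-fold from a mean of 241.0 RPKM. Synpo2 and Itga8, with siRNA means of 0.094 and 0.07 RPKM, were tested only because of their control libraries, and both are among the lower genes. Mylk, the kinase that activates the myosin light chain, was at 18.346, 12.145 and 23.088 RPKM in control cells, compared with 1.912, 3.871 and 4.022 RPKM in siTet1/Tet2 cells, with a log2 fold change of -2.14 (adjusted p = 0.000328 from limma). It was named after its values were seen, as was Lmod1 (leiomodin 1, an actin filament nucleator), which fell 4.20-fold.

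Ppp1r12b, a targeting subunit of the myosin phosphatase, which reverses the action of Mylk, was the gene of the list that rose. It was at 6.163, 6.105 and 6.432 RPKM in control cells, compared with 12.572, 12.561 and 12.047 RPKM in siTet1/Tet2 cells (log2 fold change 0.89, SE 0.07, limma, adjusted p = 4.18e-05), the lowest p of the list. Ppp1r12a, the other targeting subunit listed, was lower, at means of 26.45 and 18.3 RPKM (limma, adjusted p = 0.0117). Ppp1r14a, which encodes CPI-17, an inhibitor of that phosphatase, was at 4.462, 4.298 and 4.637 RPKM in control cells, compared with 0.391, 0.972 and 1.326 RPKM in siTet1/Tet2 cells, a 4.98-fold decrease.

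Of SRF and its cofactors and partners, 13 of the 15 symbols listed were in the table and all 13 were tested. At an adjusted p under 0.05, 7 were lower, against 29.8% of all genes tested, 1 was higher, against 14.7%, and 5 were not called. The median log2 fold change of the list was -0.23. Srf itself was at 14.983, 14.592 and 14.832 RPKM in control cells, compared with 10.234, 11.849 and 13.627 RPKM in siTet1/Tet2 cells, 1.24-fold lower (log2 fold change -0.30, SE 0.10, adjusted p = 0.038 from limma). Myocd was at 0.206, 0.295 and 0.361 RPKM in control cells, compared with 0.025, 0.025 and 0.137 RPKM in siTet1/Tet2 cells (limma, adjusted p = 0.016). With a siRNA mean of 0.0623 RPKM, it too was tested only because of its control libraries. Mkl2, or myocardin related transcription factor B, rose from a mean of 9.74 RPKM to 13.4 RPKM (log2 fold change 0.43, adjusted p = 0.00373 from limma). The lowest p in the list belonged to Fhl2, a LIM protein that binds SRF, which fell 5.52-fold from 37.3 RPKM, followed by Klf2 and Klf4, transcription factors that fell 2.45-fold and 2.93-fold.

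The siRNA libraries were not alike in these genes. Of the siRNA libraries, replicate 1 was the lowest and replicate 3 the highest in 9 of the 10 contractile genes, the exception being Tpm1. The same held in 18 of the 19 stromal markers tested, in 2 of the 19 macrophage markers tested and in 27.0% of all genes tested. The median of the 10 contractile genes, on the log2(RPKM + 1) scale and relative to the control mean, was -2.18, -1.77 and -1.31 in siRNA replicates 1, 2 and 3. The median of the stromal markers was -2.59, -2.07 and -1.66.

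**Figure D3:**
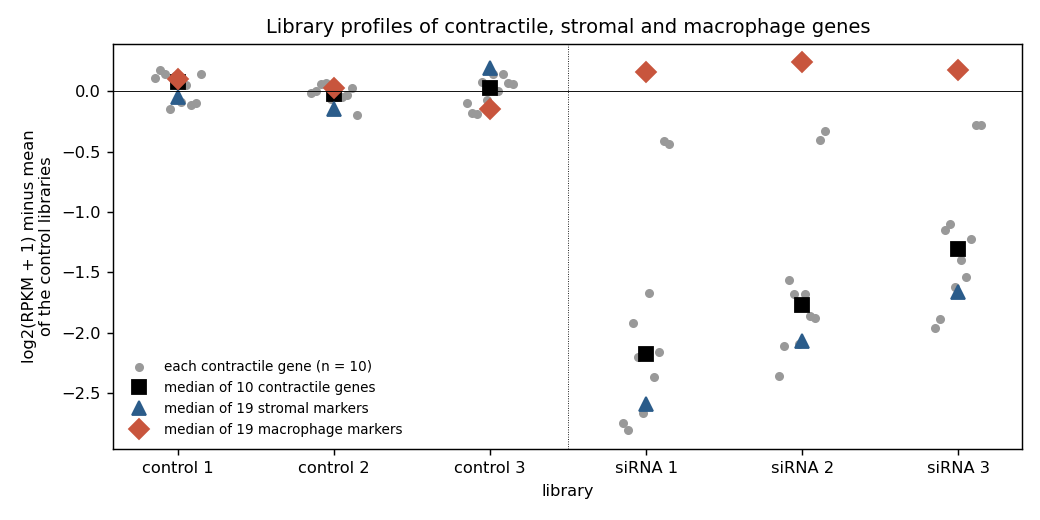
Log2(RPKM + 1) of each of the 10 contractile genes (grey), minus its mean in the control libraries, in the 6 libraries, with the medians of the contractile genes (black), 19 stromal markers (blue) and 19 macrophage markers (red). In the siRNA libraries the contractile and stromal medians lie between -1.31 and -2.59, and the macrophage median between 0.16 and 0.24.

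Markers of several cell types were also compared, beside 29.8% lower and 14.7% higher among all genes tested at an adjusted p under 0.05. Of the 19 stromal markers tested, out of 22 listed, 16 were lower, 1 was higher and 2 were not called at an adjusted p under 0.05, with a median log2 fold change of -2.13. Those with the lowest p were Vcam1, which rose 3.30-fold from 16.9 RPKM, and Pdgfra and Cxcl12, which fell 10.5-fold and 9.75-fold. The summed level of the stromal list was between 2214 and 3031 RPKM in control cells, as opposed to between 397.9 and 732.7 RPKM in siTet1/Tet2 cells. Of the 19 macrophage markers tested, 4 were lower and 9 were higher, and their sum was between 9676 and 12710 RPKM in control cells, as opposed to between 18180 and 21250 RPKM in siTet1/Tet2 cells, with Lyz2 at means of 4439 and 11320 RPKM. The markers of that list with the lowest p were Fcgr1, which fell 3.92-fold, and Mertk and Tyrobp, which rose from 50.66 to 102.3 RPKM and from 465.6 to 1164 RPKM. Of 7 mural markers tested, 3 were lower (Angpt1, Pdgfrb and Notch3, by 11.2-fold, 5.81-fold and 3.26-fold), 0 were higher and 4 were not called. The sum of the list was between 28.64 and 45.46 RPKM in control cells, as opposed to between 6.16 and 10.17 RPKM in siTet1/Tet2 cells. It was mostly Pdgfrb, at means of 30.18 and 5.191 RPKM. Of 7 endothelial markers tested, 2 were lower (28.6%, near the share of all genes tested) and 3 higher, with sums under 10 RPKM in every library. The part of these cells in the decrease of the contractile genes was not tested.

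Relative to all stromal markers listed, no contractile gene passed the test in either direction. The geometric mean of all 22 listed stromal markers was 12.7, 12.8 and 17.3 RPKM in control cells, compared with 2.65, 3.90 and 6.42 RPKM in siTet1/Tet2 cells, a ratio of the group means of 3.30, beside 2.03 to 5.03 for the contractile genes. After each library was scaled to this mean, 0 of the 10 genes were lower and 0 were higher at an adjusted p under 0.05 from limma, which here took the variance of each gene wholly from the trend of variance with level. With that scaling, 11533 of the 13266 genes tested were called in either direction. The log2 ratio of Acta2 to the stromal mean was 6.06, 5.93 and 5.41 in control libraries, and 5.45, 5.29 and 4.97 after siRNA, whereas that of Tagln was 5.15, 5.07 and 4.38, and 5.36, 5.16 and 4.85. The groups overlapped for all 10 genes, with differences from -0.56 for Acta2 to 0.80 for Des, and the exact permutation p was 0.2 or more (two-sided, 0.6 or more after adjustment over the 10 genes). A test of this size cannot give a p under 0.1, so these values do not show that the ratios were equal.

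The stromal reference was sensitive to its rarest markers. Lum, Thy1 and Lepr were below 0.2 RPKM in every library, and a geometric mean gives them the same weight as the collagens. A reference of the 19 other markers was therefore added after the values with all 22 had been seen, so it carries less weight than the reference of 22. With 19 markers the ratio of the group means was 3.77, and the groups no longer overlapped for 4 genes, Acta2 with a difference of -0.42, Tagln with 0.40, Tpm1 with 0.35 and Des with 0.94 (exact permutation p = 0.1, the smallest possible, and 0.25 after adjustment over the 10 genes). Scaled to these 19 markers, 0 of the 10 genes were lower and Des was higher (limma, adjusted p = 0.00812), whereas Des had an adjusted p of 0.0681 with all 22. With the 19 markers, 12025 of the 13266 genes tested were called in either direction. The separation of these 4 genes from the stromal markers thus depended on which markers were used.

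**Figure D4:**
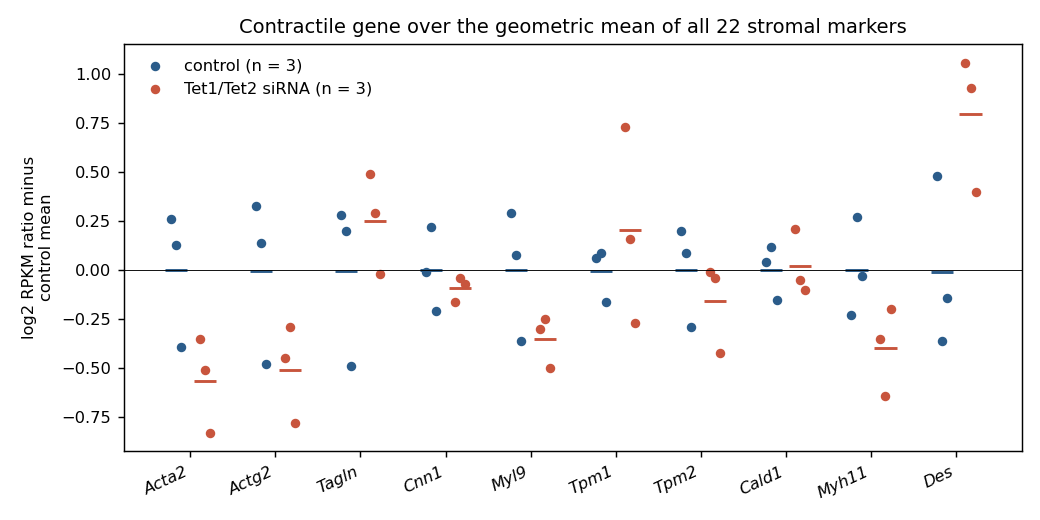
Log2 ratio of each contractile gene to the geometric mean of all 22 stromal markers in each library, as the difference from the control mean of that ratio, with a bar at each group mean (n = 3 per group). The groups overlap for all 10 genes, and the siRNA mean of Des is the farthest above the control mean, by 0.80.

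Acta2 fell the most of the 10 genes and was taken as a reference after the values had been seen, so the direction of the ratios to it is largely set by that choice and they are given with no test. Acta2 made up 37.4%, 36.3% and 35.3% of the summed RPKM of the 10 genes in the control libraries and 26.4%, 27.7% and 27.7% in the siRNA libraries. Relative to Acta2 in the same library, Tagln went from a log2 ratio of -0.91, -0.86 and -1.03 in the control libraries to -0.10, -0.13 and -0.11 in the siRNA libraries, so Tagln RPKM came close to that of Acta2. Of the 9 genes set against Acta2, 7 had a higher ratio in every siRNA library than in any control library, and the differences in these 7 genes were between 0.21 for Myl9 and 1.36 for Des on the log2 scale. The exceptions were Actg2 and Myh11, with differences of 0.06 and 0.17, whose groups overlapped.

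**Figure D5:**
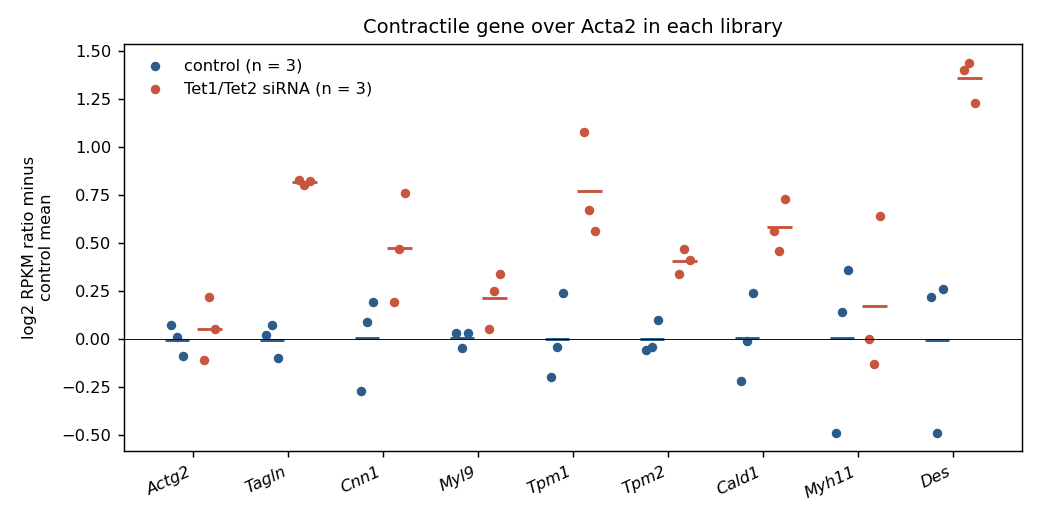
Log2 ratio of 9 contractile genes to Acta2 in each library, as the difference from the control mean of that ratio, with a bar at each group mean (n = 3 per group). The siRNA libraries (red) lie above the control libraries (blue) for 7 genes, and overlap them for Actg2 and Myh11.

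The genes whose profile over the 6 libraries was nearest to the mean profile of the 10 contractile genes were Fads3, Parva, Syde1, Hspb1 and Ppp1r14a, with a root mean square distance between 0.0353 and 0.0586 on the log2(RPKM + 1) scale. Parva (alpha parvin, an adaptor between integrins and actin) was at 23.947, 23.089 and 23.971 RPKM in control cells, compared with 5.397, 7.428 and 9.984 RPKM in siTet1/Tet2 cells. Hspb1, a small heat shock protein gene, fell 3.21-fold from 31.4 RPKM. Parva and Ppp1r14a are in the list of contractile apparatus genes. This scale compresses the changes of genes near or below 1 RPKM, so the likeness depends on it. The mean profile includes Myh11 and Des, which are so compressed. Ppp1r14a, 4.98-fold lower by group means, had a log2 fold change of -1.56 on this scale. The likeness is a description over 6 libraries and carries no test.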

How the data were processed

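RNA-seq libraries of total RNA (NEBNext Ultra kit, paired-end reads) were made from 3 control and 3 siTet1/Tet2 BMMSC samples. After adaptor trimming and mapping to GRCm38, the authors obtained abundances with DNASTAR Lasergene and deposited linear RPKM, which the methods call FPKM. The annotation and the treatment of reads matching several places are not given in the sources used here. A column of the authors' own p-value per row was deposited as well and was not used.

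For the 37 symbols listed more than once, the row of highest mean was taken. The 13266 genes averaging at least 0.1 RPKM were compared on log2(RPKM + 1) by the two-sided test of limma 3.58.1 (R 4.3.3, eBayes with trend) and Benjamini-Hochberg adjustment over all of them. Tested on simulated data for this comparison (13266 genes), limma recovered 191 of 200 changed genes and called 9 unchanged genes. The changed genes were drawn from those with a control mean above 1 on the log2(RPKM + 1) scale, so genes as low as Myh11 and Des are not covered. The simulated noise was independent between libraries, and far fewer genes were changed than were called in the data. The 10 genes, the lists and the paralog pairs were chosen with earlier results of these data known. The genes named are the 10 genes, the paralogs, the 3 genes of a list with the lowest p and those that went against the list, with the 5 genes of most similar profile. Mylk, Lmod1, Ppp1r12a, Itga8, Myh10, Srf, Myocd, Lyz2, Kcnj8, Vtn, Lum, Thy1, Lepr and the genes that overlap a member were named in addition, after their values were seen. Ratios within a library were compared with an exact permutation test. The ratios to Acta2 and to the stromal markers, the stromal reference of 19 markers, the CArG box with a replaced base and the window of 50 bases were chosen after values had been seen (a full CArG box was rare, and windows of 100 bases gave 0 shared windows for all 10 genes). Depth was estimated as the read total that brought low values of genes with 1 GENCODE M21 transcript nearest to whole reads. At that total 56.0% to 60.4% of them lay within 0.1 of a whole read, where 20% would at a total fixed beforehand, so no count test was run. Positions are from GENCODE M21 on GRCm38.

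Both groups carry the replicate numbers 1, 2 and 3. Departures from group means correlated over genes with r = 0.149, 0.117 and 0.462 for replicates 1, 2 and 3, all over 0.1, so by the rule used here a fit with the replicate number as a block was compared. Unlike numbers also correlated, control 1 with siRNA 2 at 0.332 and control 2 with siRNA 1 at 0.205. What a number stands for is not stated.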

Additional observations from a re-analysis of the deposited data

How the results depend on the processing

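Acta2, Actg2, Tagln, Cnn1, Myl9, Tpm1, Tpm2 and Cald1 kept a decrease with an adjusted p under 0.05 from limma in 16 alternatives (pseudocounts, filters, scalings other than to stromal markers, variance, replicate block, summed rows and each library left out), with a highest adjusted p of 0.0428 for Cnn1 without a filter on low values. The replicate block changed no call of the 10 genes, with 10 lower, and in the paralog pairs, where the block cannot alter a mean difference (-2.14 for Acta2/Actb), the exact sign-flip test over 3 pairs gave p = 0.25, the smallest it can give, for 8 pairs and 1.0 for Cnn1/Cnn3. Without the filter, Myh11 had an adjusted p of 0.0646 and Des of 0.184, with 36870 symbols in the adjustment, and neither was tested at a mean of at least 1 RPKM. With one replicate left out at a time, Des had log2 fold changes from -0.45 to -0.28 and adjusted p up to 0.0792.

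Scaling to all 22 stromal markers moved the median over the genes tested to 1.42, from -0.09. It left 0 members lower, 0 altered and lower, 0 higher, and 1 gene of the contractile apparatus list lower. Of the 13 non-muscle paralogs 0 were then lower and 9 higher, where 11533 of the 13266 genes tested were called in either direction. The log2 fold change became 0.25 for Tagln, 0.21 for Tpm1, 0.02 for Cald1 and 0.27 for Des. With the 19 markers past the filter, chosen after the values with 22 had been seen, that median was 1.54, 0 members were lower, 0 altered and lower and 1 higher, with 1 apparatus gene lower, 0 paralogs lower and 10 higher, and the log2 fold change was 0.39 for Tagln, 0.05 for Cnn1, 0.35 for Tpm1, 0.16 for Cald1 and 0.32 for Des. With these 19 markers, 12025 of the 13266 genes tested were called in either direction. The count of lower non-muscle paralogs, 8, was between 6 and 12 in the other alternatives. The count of higher non-muscle paralogs, 1, was 0 without the filter on low values, and 0 to 1 with one replicate left out, being 0 without siRNA replicate 1 or siRNA replicate 2. The cause was not tested. The Cnn1/Cnn3 difference of 0.10 became -0.31 against both non-muscle calponins, and went from -0.06 (without siRNA replicate 3) to 0.25 with one replicate left out.

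The ratio of Myh11 to the stromal mean changed by -0.40, and by 0.28 with a pseudocount of 0.1. Its ratio to Acta2 changed by 0.17, and by 0.97 with that pseudocount. Myh11 and Des had few reads, which limits their precision.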
